A study of Mus musculus with 22 samples.

Results

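The genes described here are 33 genes of the contractile apparatus and energy supply of skeletal muscle, out of 46882 genes listed in the deposited table. They were chosen by name, not by their values, and comprise 13 genes whose products are the fast fiber forms of their protein (Actn3, Myh1, Myh2, Myh4, Myl1, Mylpf, Tnnt3, Tnni2, Tnnc2, Atp2a1, Pvalb, Mybpc2 and Myoz1), 5 genes of slow fiber forms (Myh7, Tnnt1, Tnni1, Tnnc1 and Mybpc1) and 15 genes used in both fiber types (Acta1, Actn2, Ckm, Mb, Ttn, Neb, Casq1, Ryr1, Myot, Tcap, Des, Eno3, Pygm, Ampd1 and Cacna1s). All 33 were found in the table. The question was how much of this muscle RNA was present in normal skin, in the injected MC38 cells and in each of 12 tumors, and whether the fast and the slow forms went together.

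Skeletal muscle contracts when calcium, released from the sarcoplasmic reticulum through the ryanodine receptor, binds troponin C on the thin actin filament and lets myosin of the thick filament pull on it. Most of these proteins exist in a fast and a slow form encoded by separate genes, and a fiber is called fast or slow by the myosin heavy chain it contains: Myh4 marks the fastest fibers, Myh1 and Myh2 the intermediate fast ones, and Myh7 the slow ones. Mouse skin lies on a thin sheet of skeletal muscle, the panniculus carnosus, so a skin sample can hold muscle beside its keratinocytes. Tumors grown under the skin lie next to this sheet and to the muscle of the body wall.

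MC38 is a cell line from a chemically induced colon adenocarcinoma of a female C57BL/6 mouse. The cells were injected under the skin of the left flank of female mice 8 to 12 weeks old, and tumors were taken from wild-type C57BL/6N mice on day 23 and day 46 and from mice of the strain B6.129S7-Rag1tm1Mom/J, genotype RAG1-/-, on day 13 and day 23, with 3 tumors in each group. Each tumor was cut at random into 3 pieces, and RNA came from 1 of them. The 2 skin samples are labelled as wild-type C57BL/6N, day 23, and the 2 MC38 samples as day 0. RAG1-/- mice lack mature T and B cells but keep innate immune cells.

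RNA was read with a 3′ tag method, which gives about 1 read per transcript near its 3′ end, so levels below are read counts divided by the size factor of the library (normalized counts) and are not divided by gene length. The 16 libraries held 5589151 to 26134241 reads on genes, and 3 reads, taken here as the lowest level that counts as detected, stood at 1.33 to 6.38 normalized counts. Fewer muscle fibers and less RNA per fiber cannot be told apart in such bulk samples. Rag1 itself was read in all 6 tumors labelled RAG1-/- (1 to 12 reads) and in 1 of 6 wild-type tumors (1 read), but a 3′ tag outside the deleted part of the gene checks nothing. The light chain gene Igkc stood at 50.7 to 287 normalized counts in the wild-type tumors and at no more than 1.77 in the tumors labelled RAG1-/-. The Y-linked gene Ddx3y stood at 1803 and 1919 in skin and at no more than 1.07 in every tumor, so the skin samples did not come from the mice that carried the tumors.

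Replicates 1 and 3 of the tumors labelled RAG1-/- of day 13 stood apart from the other 10 tumors in these genes. For 31 of the 33 genes these were the 2 highest of all 12 tumors, and the others, Tnni1 and Eno3, were highest in wild-type day 23 replicate 3. Some of the results that rest on them are also given without them.

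The stretches before the start site of an actin gene of all fibers, a fast myosin gene and a slow troponin gene show which short motifs of muscle transcription factors these genes carry. They are the 250 bases before the annotated start (RefSeq, build GRCm38), 5′ to 3′ on the strand of the gene. Capitals mark the E-box CANNTG, which MyoD and myogenin bind, the MEF2 motif and the CArG motif of serum response factor, each searched on both strands.
Acta1, chr8:123894776-123895025, minus strand: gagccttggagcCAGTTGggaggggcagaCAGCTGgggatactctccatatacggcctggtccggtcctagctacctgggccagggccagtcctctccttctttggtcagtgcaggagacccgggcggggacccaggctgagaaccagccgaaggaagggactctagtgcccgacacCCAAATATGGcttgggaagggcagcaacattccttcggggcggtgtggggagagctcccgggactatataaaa
Myh4, chr11:67237562-67237811, plus strand: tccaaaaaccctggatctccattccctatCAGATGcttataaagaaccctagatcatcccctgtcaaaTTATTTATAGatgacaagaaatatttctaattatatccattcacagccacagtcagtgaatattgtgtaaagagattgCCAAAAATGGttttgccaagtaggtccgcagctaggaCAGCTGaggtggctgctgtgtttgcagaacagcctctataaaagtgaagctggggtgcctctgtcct
Tnnc1, chr14:31208062-31208311, plus strand: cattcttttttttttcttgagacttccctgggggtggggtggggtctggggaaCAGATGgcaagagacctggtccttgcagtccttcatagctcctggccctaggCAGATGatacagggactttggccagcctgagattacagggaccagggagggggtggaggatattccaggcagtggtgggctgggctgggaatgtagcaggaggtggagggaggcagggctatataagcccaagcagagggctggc
The Acta1 stretch holds 2 E-boxes and 1 CArG motif, whose first base lies 73 bases before the start. The Myh4 stretch holds 2 E-boxes, 1 MEF2 motif and 1 CArG motif, and the Tnnc1 stretch 2 E-boxes and neither of the others. No motif overlapped another in these stretches. Promoters were matched for 25 of the 33 genes (not for Tcap, Tnnt3, Neb, Myoz1, Tnni2, Myot, Ampd1 and Actn3), and 22 of these 25 (88%) held an E-box, against 66.2% of all 32851 promoters. A MEF2 motif was found in 4 of 25 (Myh1, Myh4, Pvalb and Ttn; 2.92% of all promoters) and a CArG motif in 2 of 25 (Acta1 and Myh4; 1.47%). Each of the 25 genes was counted once if any of its listed promoters held the motif, while the share of all promoters counts each promoter. The 2 kinds of share are therefore unlike measures. These motif matches are letters only, and binding was not measured.

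Both skin samples held abundant muscle RNA, nearly all of the fast kind. Acta1, the skeletal muscle actin of the thin filament, stood at 32751 and 50184 normalized counts in skin replicates 1 and 2. Myh4, the fastest myosin heavy chain, stood at 23515 and 29430.1, and Tnnc2, the fast troponin C, at 18742 and 29409.7. These are high levels in both samples, with replicate 2 above replicate 1. Ckm, the muscle creatine kinase, stood at 12680.4 and 16872, and Pvalb, the calcium-buffering parvalbumin of fast fibers, at 6809 and 5754. The 33 genes together took 1.17% and 1.94% of all reads on genes in skin.

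The slow forms were low or not detected in the same skin samples, apart from Mybpc1. Myh7, the slow myosin, had 0 reads in both, and Tnnc1, the slow troponin C, had 1 and 0 reads. Tnnt1, the slow troponin T, stood at 14.7 and 30.6 normalized counts and Tnni1, the slow troponin I, at 49.6 and 7.65. Mybpc1, the slow myosin-binding protein C, stood at 575 and 1244, the only slow form above 50 in skin. Of all reads of the 13 fast and 5 slow genes, the fast genes took 99.4% (95% Wilson interval 99.3 to 99.4%) in replicate 1 and 99.2% (99.1 to 99.2%) in replicate 2, where the intervals cover counting error only. The skin samples differed in the amount of Myh1, which stood at 1665 in replicate 1 and 11528 in replicate 2, or 6.59% and 28.1% of the reads of the 4 adult myosin genes Myh4, Myh1, Myh2 and Myh7.

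**Figure D1:**
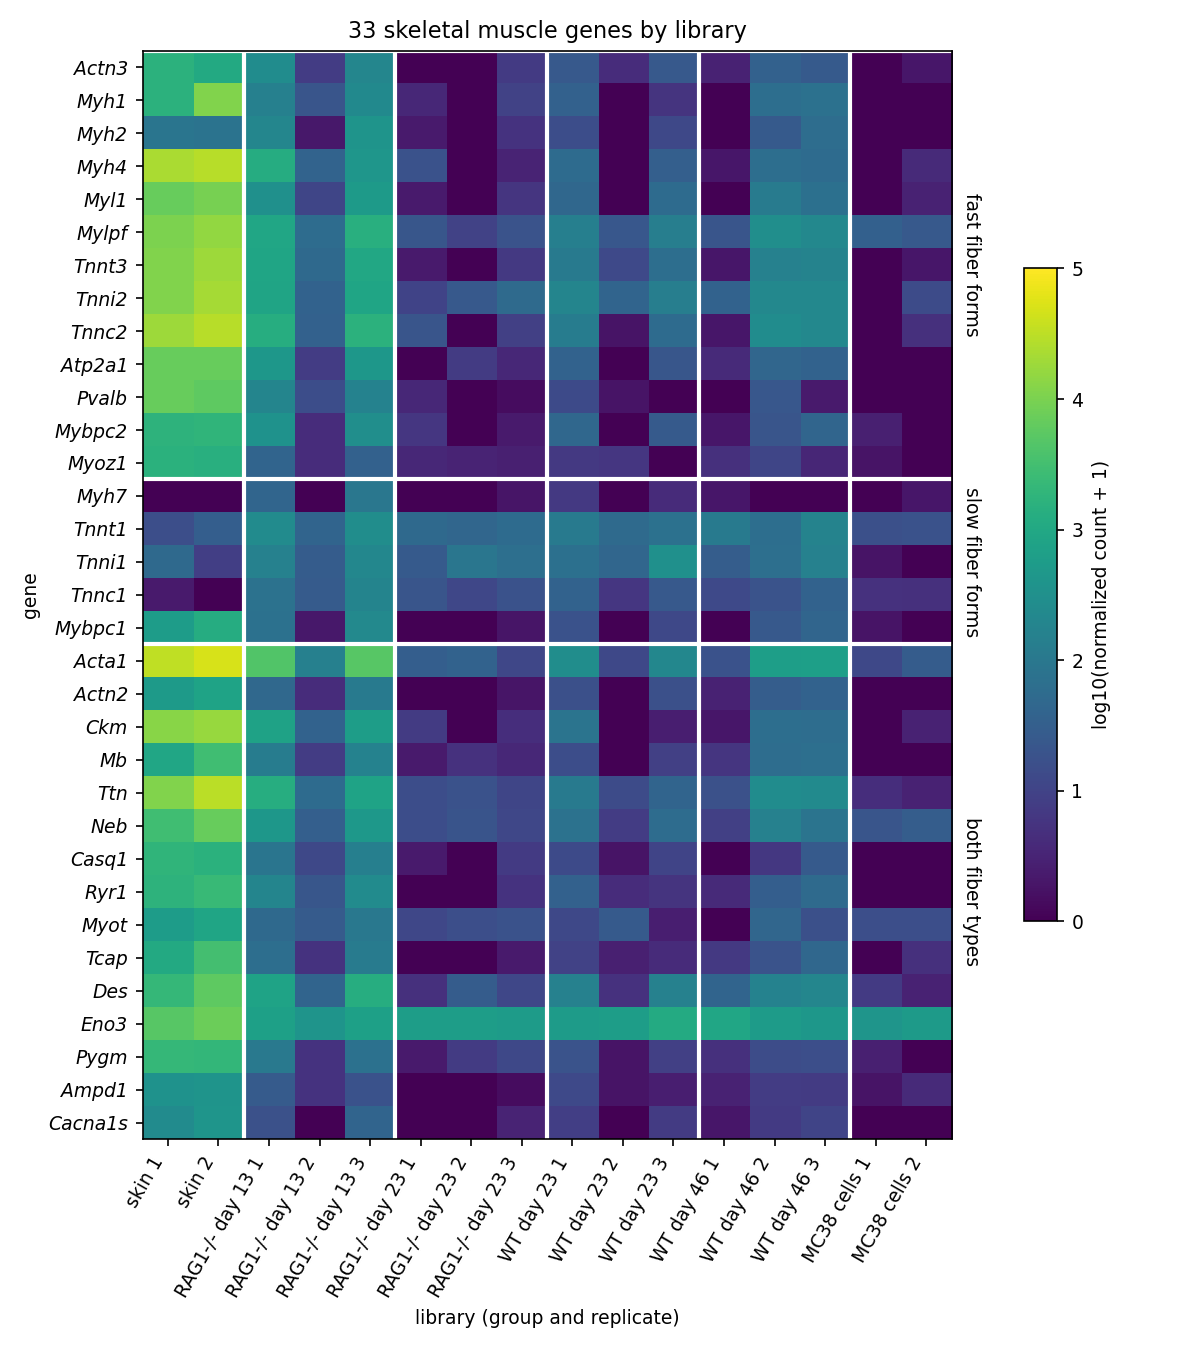
Level of each of the 33 genes (rows, grouped by fiber type) in each of the 16 libraries (columns), as log10(normalized count + 1) in color. Both skin columns are bright except at the fast gene Myh2 and the slow genes Myh7, Tnnt1, Tnni1 and Tnnc1. Replicates 1 and 3 of the RAG1-/- day 13 tumors come next, and Eno3 is lit in every column.

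Cultured MC38 cells lacked most of these transcripts. Of the 33 genes, 9 had 0 reads in both MC38 libraries (Myh1, Myh2, Atp2a1, Pvalb, Actn2, Mb, Casq1, Ryr1 and Cacna1s) and 21 had at most 3 reads in each. The exception was Eno3, the muscle form of the glycolytic enzyme enolase, at 409 and 535 normalized counts. Lower but detected levels were seen for Mylpf (33.4 and 24.4), Neb (19.7 and 28.4), Acta1 (11.1 and 27.4), Tnnt1 (15.4 and 17.6) and Myot (14.5 and 14.7). Of 31 genes that could be tested, 30 were lower in MC38 cells than in skin and 0 higher by limma on log2(normalized count + 1) with Benjamini-Hochberg adjustment, where 41.2% of all 16780 genes tested were lower and 20.8% higher. EdgeR and DESeq2 on the recovered reads also called 30 lower and 0 higher.

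The differences between skin and MC38 cells were large. The MC38 minus skin difference on the log2 scale was -13.70 for Myh4 (SE 0.67, adjusted p = 0.00018, limma), -11.09 for Acta1 (SE 0.46, adjusted p = 0.000151) and -3.74 for Eno3 (SE 0.25, adjusted p = 0.000349), and in each case both skin samples lay above both MC38 samples. The median over the 31 genes was -10.10, against -0.40 over all genes tested. Rescaling each library to the same total moved that median of all genes to 0.04 and the split of called genes from 3482 higher and 6920 lower to 4997 and 5594, with the muscle genes still at 0 and 30. For genes at 0 reads in both MC38 libraries, the 3-read floor gives a bound: mean Atp2a1, the calcium pump of fast fibers, was at least 2356-fold higher in skin, Pvalb at least 2142-fold and Myh1 at least 2249-fold. Tnnt1 was the tested gene that was not called, with a log2 difference of -0.35 (95% interval -1.62 to 0.91), and Myh7 and Tnnc1 were too low in these 4 libraries to be tested.

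In the tumors the amount of muscle RNA varied over a wide range. Because Eno3 was read in MC38 cells and made up 3.68% to 73.8% of the summed level in tumors, the sum over the other 32 genes is given first. It was 16034, 775 and 17742 normalized counts in RAG1-/- day 13 replicates 1, 2 and 3 and 262, 311 and 348 in RAG1-/- day 23. In wild-type tumors it was 1932, 253 and 1512 on day 23 and 327, 3002 and 3102 on day 46. The same sum was 115 and 153 in MC38 cells and 174580.0 and 277182 in skin. The highest tumor was therefore 70.1-fold above the lowest, and 21.3-fold when Eno3 was counted. Relative to the mean of the skin samples, the highest tumors reached 7.10% and 7.85%, wild-type day 46 replicates 2 and 3 reached 1.33% and 1.37%, and 5 tumors (wild-type day 23 replicate 2, wild-type day 46 replicate 1 and all 3 of RAG1-/- day 23) lay between 0.112% and 0.154%.

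Keratinocyte genes were measured beside the muscle genes with a list of 10 epidermis genes, keratins and cornified envelope genes among them. Krt10, a keratin, was left out of the sum because it stood at 304 and 291 normalized counts in MC38 cells, as Eno3 was above, a choice made after seeing the values. The other 9 genes summed to 320956 and 296791 in skin and to 7.70 and 39.1 in MC38 cells. In tumors they summed to 70.6, 17.8 and 53.3 in RAG1-/- day 13, to 17.0, 12.8 and 49.0 in RAG1-/- day 23, to 41.3, 1093 and 146 in wild-type day 23 and to 19.5, 41.6 and 77.9 in wild-type day 46. Within RAG1-/- day 13 and within wild-type day 46 the tumor with the least muscle RNA was thus also the one with the least epidermis RNA. In RAG1-/- day 13, replicate 3 was highest in muscle genes but replicate 1 in epidermis genes. Krt14, a keratin, alone stood at 53.5 and 40.0 in replicates 1 and 3, so their sums rest mostly on 1 gene and lie near the 39.1 of MC38 cells. Over all 12 tumors the highest epidermis sum was that of wild-type day 23 replicate 2, which was the lowest in muscle genes. Krt5, the keratin of basal keratinocytes, had 0 reads in all 6 tumors labelled RAG1-/- and stood at 135.5 in wild-type day 23 replicate 2. The part of skin in the muscle values was not tested.

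**Figure D2:**
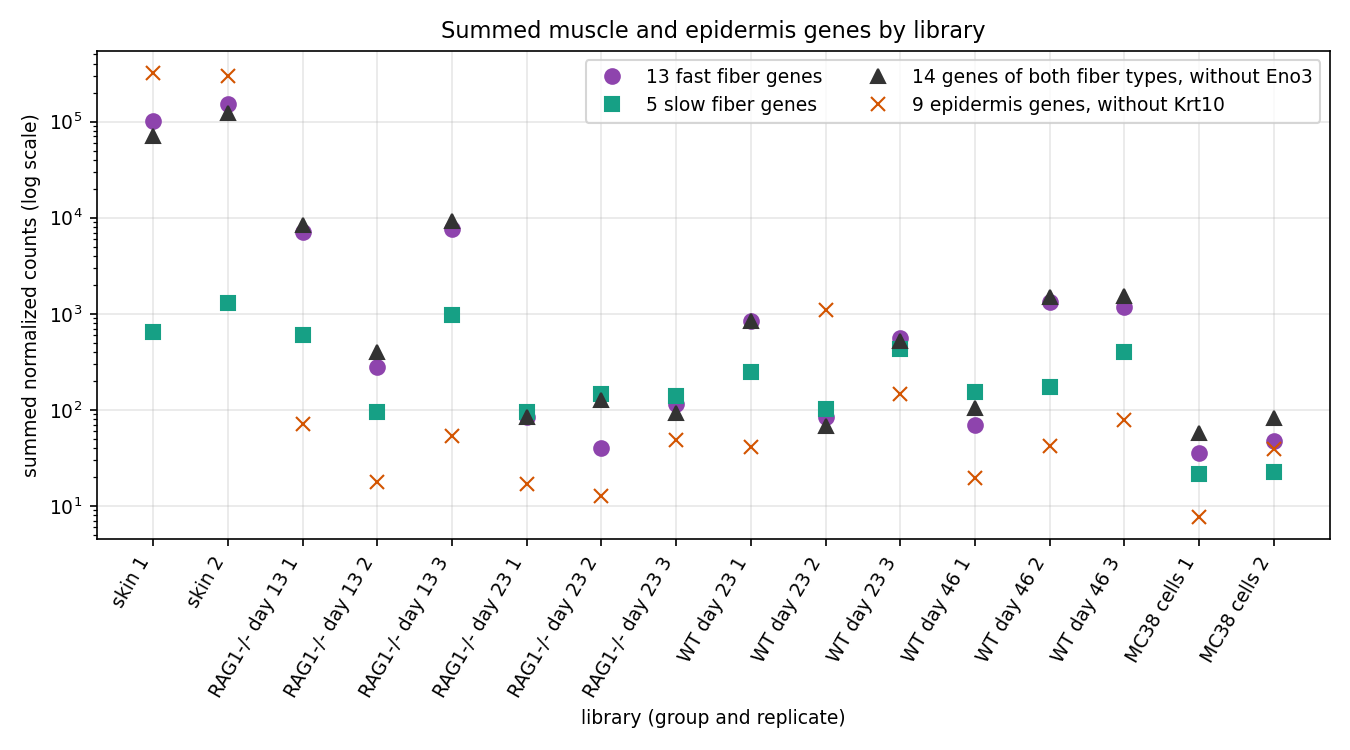
Summed normalized counts (log scale) of the 13 fast genes, the 5 slow genes, 14 of the genes of both fiber types (without Eno3) and 9 epidermis genes (without Krt10) in each library. Fast genes lie far above slow genes in skin and in 2 RAG1-/- day 13 tumors. They lie below them in all 3 RAG1-/- day 23 tumors, wild-type day 23 replicate 2 and wild-type day 46 replicate 1. The epidermis genes are highest among tumors in wild-type day 23 replicate 2.

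Among genes of the thin filament, Acta1 had the most reads of all 33 genes over the 12 tumors. It stood at 4374, 152 and 4965 normalized counts in RAG1-/- day 13, at 30.1, 36.2 and 10.6 in RAG1-/- day 23, at 285, 11.1 and 209 in wild-type day 23 and at 17.6, 637 and 665 in wild-type day 46. Tnnc2 stood at 1278, 34.5 and 1621 in RAG1-/- day 13, at 19.6, 0 and 7.95 in RAG1-/- day 23, at 127, 0.852 and 55.5 in wild-type day 23 and at 0.977, 265 and 214 in wild-type day 46. For both genes the same tumors were high, and the lowest tumors were at or near the MC38 level. Neb, the ruler protein of the thin filament, ranged from 6.82 to 454 in tumors, and its lowest tumors lay below the 19.7 and 28.4 of MC38 cells.

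Thick filament and Z-disc genes followed the same tumors. Mylpf, the regulatory light chain of fast myosin, stood at 923, 56.7 and 1411 in RAG1-/- day 13 and at 20.9, 8.51 and 17.7 in RAG1-/- day 23. It stood at 145, 21.3 and 135 in wild-type day 23 and at 19.5, 289 and 216 in wild-type day 46. Des, the intermediate filament desmin that ties myofibrils together, stood at 793, 40.0 and 1278 in RAG1-/- day 13 and at 156, 4.26 and 154 in wild-type day 23. Desmin was thus 20.04% and 32.3% of its mean skin level in the 2 highest tumors, a larger share than for any other gene of both fiber types. Actn3, the fast alpha-actinin, reached 20.1% and 14.6% there, and Mybpc2, the fast myosin-binding protein C, 19.9% and 16.3%. Ttn, the elastic filament titin, reached 6.26% and 3.89%.

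Genes of calcium handling and energy supply also stayed far below their skin levels. In RAG1-/- day 13 replicates 1 and 3, Atp2a1 reached 6.52% and 6.41% of its mean skin level, Ryr1, the calcium release channel, 9.12% and 12.9%, and Pvalb 2.96% and 2.56%. Ckm reached 5.13% and 4.09% and Pygm, the muscle glycogen phosphorylase, 5.12% and 3.45%. Over the 13 fast genes the median share of the skin level was 5.31% in replicate 1 and 6.50% in replicate 3, and over the 15 genes of both fiber types 6.95% and 9.34%. Eno3 was the exception to the order of tumors: it stood at 395 to 1116 in all 12 tumors, and its median of 605 was close to the 535 of the higher MC38 library.

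Myh2 took a larger part of the myosin heavy chain reads in several tumors than in skin. Myh2, the myosin of the more oxidative fast fibers, stood at 87.1 and 80.3 normalized counts in skin but at 196 and 380.1 in RAG1-/- day 13 replicates 1 and 3, above both skin samples although Myh4 was far below them there (1230.2 and 428). Of the reads of the 4 myosin genes, Myh2 made up 0.345% and 0.196% in skin, 12.1% (95% Wilson interval 10.6 to 13.9%) in RAG1-/- day 13 replicate 1 and 33.4% (30.8 to 36.1%) in replicate 3. It made up 16.4% (12.2 to 21.8%) and 32.6% (27.5 to 38.0%) in wild-type day 46 replicates 2 and 3. RAG1-/- day 13 replicate 2, with 53 myosin reads, had 1.89% (0.334 to 9.94%), and its Myh4 and Myh1 shares of 64.2% (50.7 to 75.7%) and 34.0% (22.7 to 47.4%) held those of skin replicate 2 within their intervals. The intervals did not overlap among these 3 RAG1-/- day 13 tumors, nor between these 2 wild-type day 46 tumors.

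Slow myosin was read in the 2 highest tumors and not in skin. Myh7 had 39 and 99 reads in RAG1-/- day 13 replicates 1 and 3, or 41.7 and 94.3 normalized counts, and 0 reads in both skin libraries. Against the 3-read floor per skin library these 2 tumors were at least 10.4-fold and 23.5-fold higher. Wild-type day 23 replicate 1 had 8 reads, and no other tumor had more than 3. Wild-type day 46 replicates 2 and 3, with 225 and 301 reads of the 4 myosin genes, had 0 of Myh7. The last bases of Myh1, Myh2 and Myh4 transcripts share part of their sequence: of 479 windows of 22 bases in the last 500 bases, 18.4% of those of Myh4 occur in Myh1 and 17.1% in Myh2, so reads may have been placed on the wrong copy, and the split between these 3 genes is uncertain. For Myh7, 65.8% of such windows occur in the cardiac myosin Myh6, which had at most 1 read in every tumor.

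**Figure D3:**
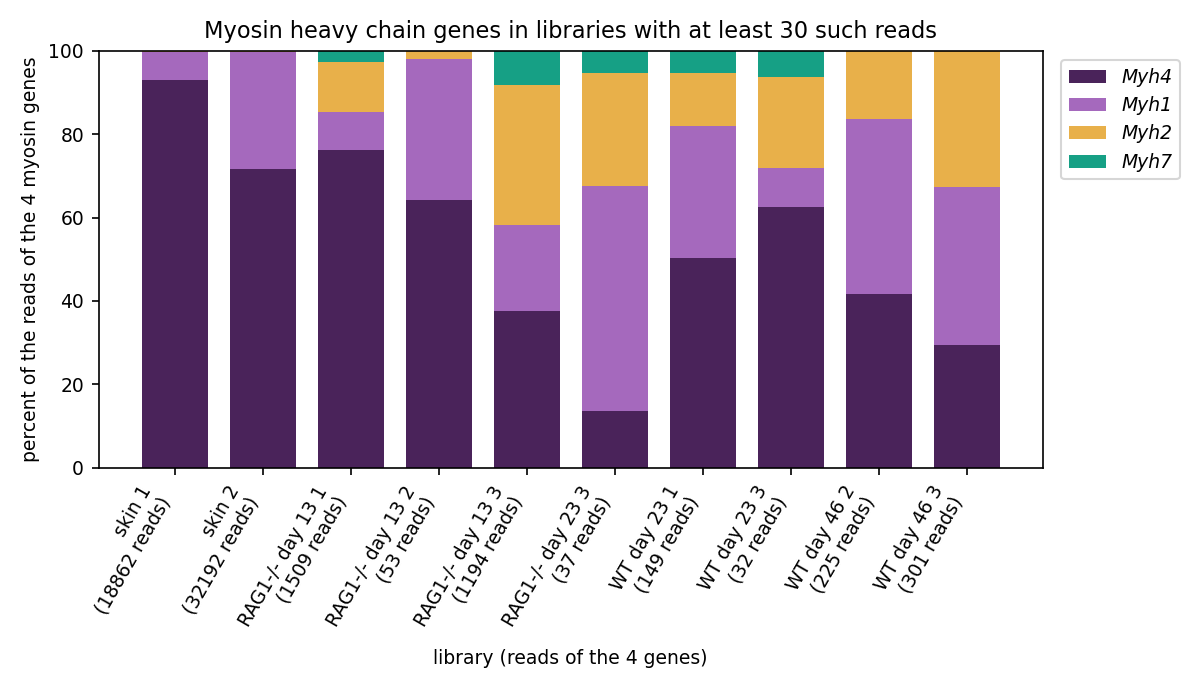
Percent of the reads of Myh4, Myh1, Myh2 and Myh7 taken by each gene, in the 10 libraries with at least 30 such reads (read numbers under each bar). Myh4 and Myh1 fill the skin bars, while Myh2 is present in all 8 tumor bars and Myh7 in 5 of them.

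The slow troponins were present in all 12 tumors, also where fast forms were nearly absent. Tnnt1 stood at 252, 40.0 and 283 normalized counts in RAG1-/- day 13, at 49.7, 44.7 and 55.7 in RAG1-/- day 23, at 117, 52.0 and 72.9 in wild-type day 23 and at 111, 64.5 and 171 in wild-type day 46. Every tumor was above both skin samples (14.7 and 30.6) and both MC38 samples (15.4 and 17.6). Tnnc1 stood at 75.9, 26.7 and 175 in RAG1-/- day 13 and at 19.6, 10.6 and 16.8 in RAG1-/- day 23. In wild-type tumors it stood at 36.1, 5.11 and 23.8 on day 23 and at 11.7, 18.1 and 36.4 on day 46. Every tumor was again above skin (1.34 and 0) and MC38 cells (4.28 and 3.91). Tnni1 stood at 24.9 to 318 in tumors, with its highest value in wild-type day 23 replicate 3, against 0.856 and 0 in MC38 cells.

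The slow share of each troponin was under 1% in skin and higher in every tumor. Tnnt1 made up 0.13% and 0.167% of the Tnnt1 and Tnnt3 reads in skin, and 22.8% and 21.8% in RAG1-/- day 13 replicates 1 and 3. It made up 97.4%, 100% and 90.6% in the 3 RAG1-/- day 23 tumors and 99.1% in wild-type day 46 replicate 1, where Tnnt3, the fast troponin T, had 0 to 13 reads. Tnni1 made up 15.97% and 19.3% of the troponin I reads in RAG1-/- day 13 replicates 1 and 3 and 73.1%, 79.2% and 56.0% in RAG1-/- day 23. It made up 69.8% in wild-type day 23 replicate 3 and 44.1% in wild-type day 46 replicate 1, although the second held less muscle RNA. MC38 cells had few such reads: Tnnt1 took 18 of 18 and 18 of 19 troponin T reads, Tnnc1 5 of 5 and 4 of 8 troponin C reads, and Tnni1 1 of 1 and 0 of 13 troponin I reads. Over all 13 fast and 5 slow genes, the fast share was 92.2%, 74.6% and 88.6% in RAG1-/- day 13 and 47.1%, 21.8% and 45.3% in RAG1-/- day 23. It was 77.5%, 45.2% and 56.7% in wild-type day 23 and 31.1%, 88.5% and 74.7% in wild-type day 46. In MC38 cells the same share was 62.7% (Wilson interval 50.7 to 73.3%) and 68.1% (56.6 to 77.7%), from 67 and 72 reads. The shares of the 3 RAG1-/- day 23 tumors rested on 136, 87 and 579 reads. Their Wilson intervals were 38.9 to 55.4%, 14.5 to 31.6% and 41.2 to 49.3%. No tumor reached the 99.2% of skin, and these shares are descriptions over chosen genes, with no test. Whether the lower shares in tumors reflect fiber types was not tested.

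**Figure D4:**
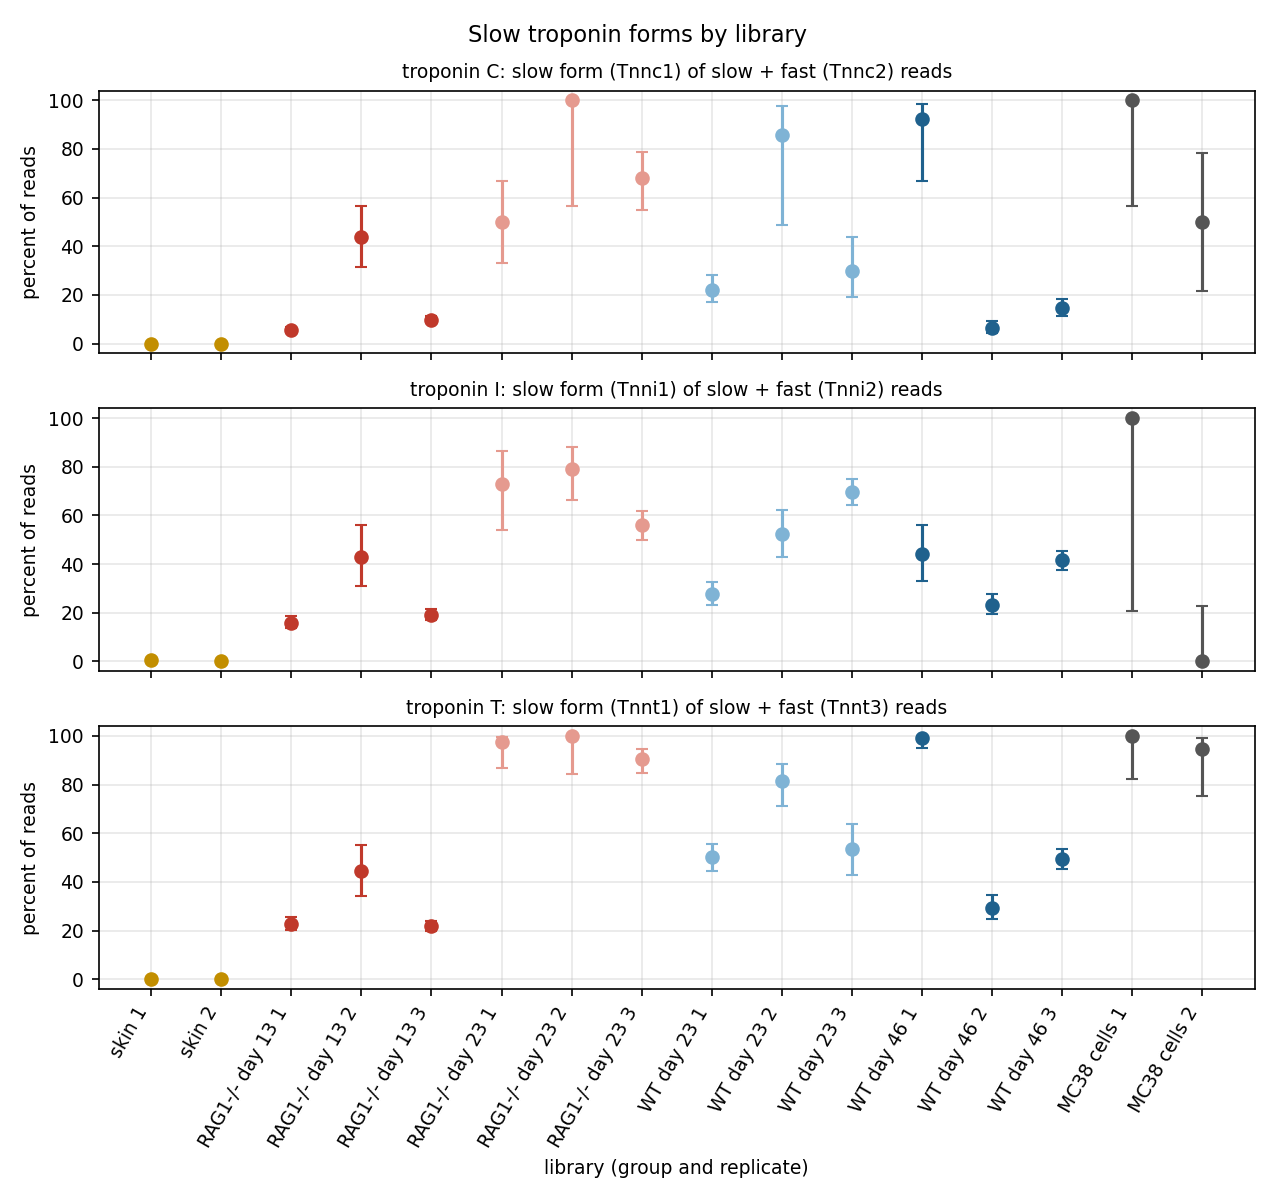
Percent of slow plus fast reads taken by the slow form of troponin C, I and T in each library, with 95% Wilson intervals as bars (counting error only). Slow forms are near 0% in skin and lie below 25% in RAG1-/- day 13 replicates 1 and 3. For each troponin they reach 50% or more in all 3 RAG1-/- day 23 tumors and in wild-type day 23 replicate 2.

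The test of all 12 tumors against skin gave 28 of 33 genes lower and 2 higher in tumors (limma over all 16 libraries), where 36.6% of all 16158 genes tested were lower and 25.2% higher. The 2 higher genes were Tnnc1, by 4.07 on the log2(normalized count + 1) scale (SE 0.68, adjusted p = 8.42e-05), and Tnnt1, by 1.99 (SE 0.56, adjusted p = 0.00603). They were also the 2 genes for which every tumor lay above both skin samples, as 20% of all genes did. Without skin replicate 1 the Tnnt1 difference fell to 1.48 and was no longer called (adjusted p = 0.148). Tnni1 differed by 1.89 (adjusted p = 0.0633), by 3.17 without skin replicate 1 (adjusted p = 0.0394) and by 0.62 without skin replicate 2 (adjusted p = 0.691). It was called in 7 of 25 alternatives. The difference was not called for Myh2, at -3.15 (adjusted p = 0.1), or Myh7, at 1.56 (adjusted p = 0.241). Among the called fast genes, the difference was -10.20 for Myh4 (SE 1.52, adjusted p = 2.62e-05) and -7.20 for Mylpf (SE 1.02, adjusted p = 1.55e-05). Without the 2 highest tumors 29 genes were lower and 2 higher. Rescaling each library to the same total moved the median of all genes from -0.18 to 0.23 and turned the split of all called genes from 4073 higher and 5913 lower to 5888 and 4321, while 28 muscle genes stayed lower and 3 were higher.

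Against MC38 cells, 10 of 33 genes were higher in tumors and 0 lower, where 16.5% of all 16158 genes tested were higher and 8.01% lower. They were Tnnt3, Tnni2, Tnnt1, Tnni1, Tnnc1, Mb, Ttn, Casq1, Ryr1 and Des, of which Mb, Casq1 and Des were not called with the replicate number as a block. Tnni1 differed most, by 5.83 (SE 0.85, adjusted p = 6.83e-05), followed by Tnni2, the fast troponin I, by 4.71 (SE 1.09, adjusted p = 0.00421), and Tnnt3 by 4.65 (SE 1.37, adjusted p = 0.0206). Tnni2 had 0 and 13 reads in the MC38 libraries, and its difference was 2.82 without MC38 replicate 1 (adjusted p = 0.214, not called) and 6.60 without replicate 2 (adjusted p = 0.00382). Every tumor lay above both MC38 samples for 4 genes (Tnnt1, Tnni1, Tnnc1 and Ttn), as for 14.7% of all genes. Acta1, with a difference of 3.10 (SE 1.36, adjusted p = 0.114), and Eno3, with 0.41 (adjusted p = 0.319), were not called. Rescaling to the same upper quartile moved the median of all genes from 0.07 to 0.20 and the split of all called genes from 2671 higher and 1294 lower to 2922 and 647, and 12 muscle genes were then higher and 0 lower.

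This count depended on single libraries. It was 1 without MC38 replicate 1 and 2 without MC38 replicate 2, where 10.4% and 10.1% of all genes were called higher, so the muscle genes then lay below the share of all genes. It was 20 without RAG1-/- day 13 replicate 2 and 19 without wild-type day 46 replicate 1, where 16.4% and 17.4% of all genes were called higher. It was 6 of 32 without RAG1-/- day 13 replicates 1 and 3 together, against 14.2% of all genes. Where 1 library was left in a group, it was assumed to vary like the other groups. Tnni1 was called under each of 25 alternatives. On the recovered reads edgeR called 6 of 33 (18.2%) where it called 15% of all genes higher, and DESeq2 called 22 of 33 where it called 17.7% of all genes higher. Some genes abundant in skin were read in MC38 replicate 2 and not in replicate 1: Krtdap, an epidermal gene, had 9.78 normalized counts there, Krt5 3.91 and Myh4 2.93, the 3-read floor. Others were read in replicate 1. Krt14, another epidermal gene, stood at 4.28 in replicate 1 and 12.7 in replicate 2, Mylpf at 33.4 and 24.4, and the epidermal gene Trp63 at 3.42 and 0. The part of these reads in the result was not tested.

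Between day 13 and day 23 of the tumors labelled RAG1-/- no muscle gene passed the limma test, although most had their lower values on day 23. Ckm stood at 757, 36.7 and 604 normalized counts on day 13 and at 6.55, 0 and 3.53 on day 23. Ryr1 stood at 186, 21.1 and 263 on day 13 and at 0, 0 and 4.42 on day 23. For 24 of 33 genes every day 13 tumor lay above every day 23 tumor, as for 9.92% of all 14746 genes. Limma called 0 of 33 genes, and 0% of all genes. Tnnt3 had the lowest day 23 minus day 13 difference, -7.15 on the log2 scale (SE 1.48, adjusted p = 0.167), and that of Acta1 was -5.97 (SE 1.46, adjusted p = 0.172). Before adjustment 29 of the 33 genes had p under 0.05, and 1722 genes of all tested (11.7%). DESeq2 on the recovered reads called 21 of 33 lower on day 23 (0.795% of all genes) and edgeR 0. Without RAG1-/- day 13 replicate 2, limma called 13 lower, and 35 lower and 2 higher of all 14759 genes tested. Without RAG1-/- day 13 replicates 1 and 3 it called 0, and 2 of the 29 genes then tested had an unadjusted p under 0.05 (6.9%), against 3.81% of all genes. That fit leaves 1 tumor on day 13, which is assumed to vary like the other groups, and has less power for every gene.

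No muscle gene passed a test when tumors of wild-type hosts were set against the RAG1-/- ones. On day 23, limma called 0 of 33 genes, where it called 0.278% of all genes. Before adjustment 3 of 33 genes (9.09%) had p under 0.05 by limma (Actn3, Tnnt3 and Ryr1), below the 11.2% of all genes. EdgeR and DESeq2 also called 0 of 33. Of all genes, edgeR called 0.115% higher and 0.0339% lower, and DESeq2 1.07% and 0.549%. Before adjustment 5 genes (15.2%) had p under 0.05 by edgeR and 7 (21.2%) by DESeq2, above the 10.7% and 11.3% of all genes. Tnnt3 stood at 116, 11.9 and 63.4 in wild-type day 23 and at 1.31, 0 and 5.74 in RAG1-/- day 23, a log2 difference of 4.20 (SE 1.48, adjusted p = 0.29). For 4 genes (Mylpf, Tnnt3, Tcap and Ampd1) every wild-type tumor lay above every RAG1-/- tumor, a direction seen for 8.5% of all genes. Tcap had 12, 2 and 2 reads in the wild-type tumors and 0, 0 and 3 in the RAG1-/- ones. Ampd1 had 16, 1 and 1 against 0, 0 and 1. Most of these values lay at or under the 3-read floor, so for these 2 genes the order rests on the size factors. Over both days of each genotype limma called 0 of 33 genes and 0.712% of all genes. These days differ in part between the genotypes, so genotype and day cannot be told apart there. No member had p under 0.05 before adjustment by limma, against 11.4% of all genes. EdgeR and DESeq2 also called 0 of 33 over both days. Of all genes, edgeR then called 0.597% higher and 0.156% lower, and DESeq2 1.32% and 0.61%.

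For 8 genes the 6 wild-type tumors were also compared with the 6 tumors labelled RAG1-/- by a two-sided exact permutation test. The wild-type tumors were of day 23 and day 46 and the others of day 13 and day 23. Host genotype and day can therefore not be told apart by this test. Acta1 had a lowest, median and highest value of 11.1, 247 and 665 normalized counts in wild-type and of 10.6, 94.3 and 4965 in RAG1-/- tumors, which overlapped widely. The exact p was 0.807 for Acta1, 0.483 for Ckm, 0.602 for Myh4, 0.435 for Myh7 and 0.872 for Tnnt1, and after Benjamini-Hochberg adjustment over the 8 exact tests each was 0.92. The smallest p such a test can give with 6 against 6 is 0.00216. Without RAG1-/- day 13 replicates 1 and 3 all 8 wild-type minus RAG1-/- log2 differences were positive, and those of Acta1, Ckm, Myh4 and Myh7 turned sign: that of Acta1 was -0.49 with them and 1.82 without them. The exact p was then 0.019 for Tnnt1, with a difference of 0.92 (adjusted 0.152 over the 8 exact tests), and 0.0667 for Mylpf, with 2.06 (adjusted 0.229). The smallest p possible with 6 against 4 is 0.00952 by this exact test. RAG1-/- day 13 replicates 1 and 3 were left out because they were highest in these genes, which by itself raises every difference. These signs and p-values are therefore not a test of genotype. Between wild-type tumors of day 46 and day 23 limma, edgeR and DESeq2 each called 0 of the 33 genes. Of all 14746 genes tested, limma and edgeR called 0%, and DESeq2 called 0.176% higher and 0.115% lower. Before adjustment 0 of the 33 genes had p under 0.05 by limma (8.55% of all genes). It was 2 (6.06%) by edgeR, against 8.91% of all genes, and 1 (3.03%) by DESeq2, against 9.47%.

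**Figure D5:**
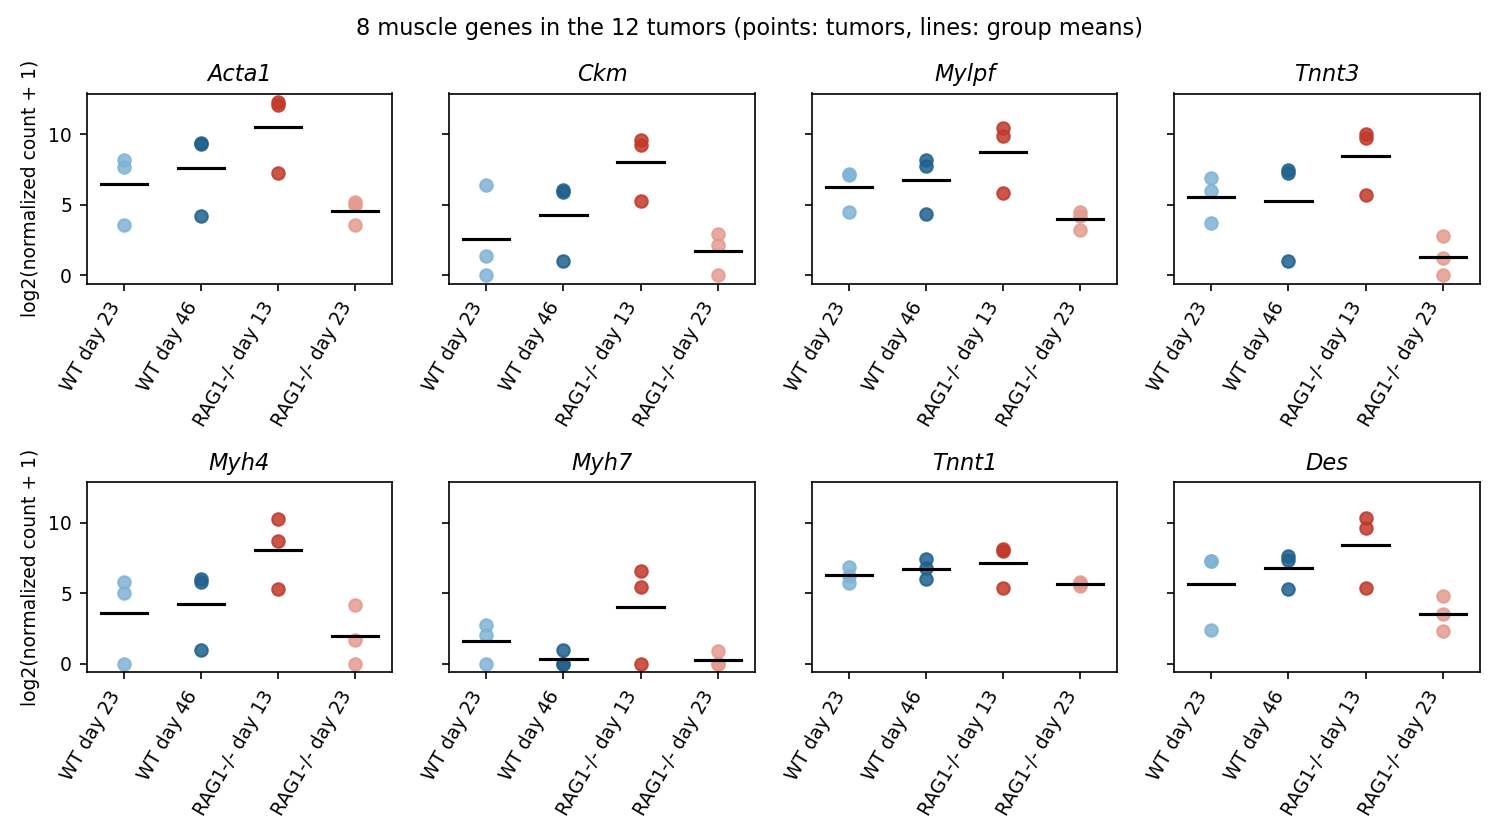
Level of 8 muscle genes as log2(normalized count + 1) in the 12 tumors by group (points are tumors, black lines group means). In every panel 2 of the 3 RAG1-/- day 13 points are the highest of the 12 tumors.

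Other muscle genes, from lists written by hand, included some that were highest in the same tumors. Xirp2, a protein of the myotendinous junction, stood at 868, 32.2 and 1062 normalized counts in RAG1-/- day 13, at 0 to 191 in wild-type tumors and at 5.30 to 14.4 in RAG1-/- day 23. Of 16 further sarcomere genes tested, 16 were lower in tumors than in skin and 2 were higher than in MC38 cells. Of 12 further genes of excitation-contraction coupling tested, 12 were lower than in skin and 2 higher than in MC38 cells. Of 12 further genes of energy supply, 11 were lower than in skin, and 1 was higher and 1 lower than in MC38 cells. Of all 16158 genes tested, 36.6% were lower in tumors than in skin, and 16.5% were higher and 8.01% lower than in MC38 cells. The counts higher than in MC38 cells in these 3 lists were thus near or below the share of all genes. The 6 further genes of slow fibers also varied. Myl2 and Myl3, light chains of slow and cardiac myosin, stood at 66.3 and 192 and at 19.2 and 75.3 in RAG1-/- day 13 replicates 1 and 3 and at 0 to 6.37 in skin. Casq2, a calsequestrin, stood at 67.0 and 66.3 in skin and at 2.13 to 73.3 in tumors, and Myoz2 at 37.5 and 86.7 in skin and at 0 to 97.2 in tumors. Atp2a2 and Tpm3, which many other cell types use, stood at 2683 to 5273 in every library.

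Genes of developing or regenerating muscle varied among themselves, and some were highest in the same 2 tumors. Myog, the transcription factor myogenin, stood at 35.3 and 52.4 in RAG1-/- day 13 replicates 1 and 3, against 1.34 and 11.5 in skin and 0 in MC38 cells. Myh3, the embryonic myosin, stood at 32.1 and 37.1 there, at 0 to 22.2 in the other tumors and at 4.02 and 3.82 in skin. Myf6, a further muscle transcription factor, was lower there than in skin, at 49.2 and 37.2 against 111 and 136. Myod1, another, stood at 23.5 and 11.4 there and at 20.1 and 79.0 in skin, so the first of these tumors lay above skin replicate 1. Chrna1, a subunit of the acetylcholine receptor, was highest in wild-type day 23 replicate 3 (112.5) and Chrng, another subunit, in wild-type day 46 replicate 3 (14.4). Of 6 genes of this list tested, Myf6, Myod1 and Myh8 were called lower in tumors than in skin and 0 higher, and Chrna1 and Myh3 were called higher than in MC38 cells. Of all 16158 genes tested, 36.6% were lower and 25.2% higher than in skin, and 16.5% were higher than in MC38 cells. Pax7, the marker of satellite cells, had 0 reads in all 12 tumors. The 9 listed genes of developing muscle found in the table summed to 220 and 273 in these 2 tumors and to 19.6 to 173 in the other 10, of which Chrna1 made up a large part. Whether they belong to the same cells as the 33 genes was not tested.

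Markers of other tissues were read beside these genes. Of the 7 cardiac genes, Myh6, Nppa and Ryr2 had at most 3 reads in every library, while Tnnt2, the cardiac troponin T, stood at 682 to 2619 in all 12 tumors and at no more than 72.3 in skin and MC38 cells. Actc1, the cardiac actin, stood at 376 and 286 in skin, at 0 in MC38 cells and at 0 to 41.9 in tumors, where RAG1-/- day 13 replicates 1 and 3 were highest with 33.2 and 41.9. The Tnnt2 level did not follow the muscle genes: its highest tumor was wild-type day 46 replicate 3 and RAG1-/- day 13 replicates 1 and 3 had 1077 and 1019. The 8 smooth muscle genes summed to 458 to 2280 in tumors, highest in wild-type day 46 replicate 2, and to 4477 and 3096 in skin. The 9 adipocyte genes summed to 271 to 1102 in tumors, highest in RAG1-/- day 13 replicate 1, and to 26364 and 22915 in skin. Adipoq, the fat cell hormone adiponectin, stood at 22.5 and 13.3 in RAG1-/- day 13 replicates 1 and 3 and at 34.5 in wild-type day 46 replicate 3. The 6 peripheral nerve genes summed to 753 to 2042 in tumors and to 3455 and 3241 in skin. The part of these tissues in the muscle values was not tested.

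By the GENCODE annotation of GRCm38 the 33 genes lie on 12 chromosomes. Myh2 (chr11:67171027-67197517), Myh1 (chr11:67200052-67224575) and Myh4 (chr11:67238029-67260446) lie in a row on the plus strand, and Tnni2 (chr7:142441808-142444410) lies near Tnnt3 (chr7:142498836-142516009). Acta1 lies at chr8:123891769-123894751 on the minus strand, Tnnc1 at chr14:31208312-31211729 on the plus strand and Tnnt1 at chr7:4504570-4516382 on the minus strand. The last 500 exonic bases, where 3′ tags fall, overlap no other gene on the same strand for any of the 33 genes and a gene on the opposite strand for 9 of them (Myh1, Myh2, Tnnc2, Atp2a1, Mybpc2, Myh7, Mb, Des and Cacna1s). The strand setting of the counting is not given in the sources used here, so for these 9 genes reads of the partner cannot be told apart.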

How the data were processed

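The 16 libraries were made with a 3′ tag kit and counted per gene, with Trimmomatic, STAR, HTSeq and DESeq2 among the tools and mm10 as the genome build in the submitters' processing notes. The deposited values are signal values: counts that the authors divided by a DESeq2 size factor per library. Dividing by the smallest step of each library returned whole reads (within 0.01 read) for all values, and libraries held 5589151 to 26134241 reads on genes. Groups were taken from the labels. The 33 genes and the other lists were chosen by name, with earlier results of these data known, and named genes are those members. Skin, MC38 cells and tumors were compared with limma 3.58.1 (R 4.3.3, with trend) on log2(normalized count + 1), leaving out genes whose mean was under 5, with Benjamini-Hochberg adjustment over all genes tested, a threshold of 0.05 and two-sided p-values. The MC38 and skin fit used those 4 libraries, tumors against skin or MC38 cells all 16, and comparisons among tumors the 12 tumors. The fits were tested on simulated data. The recovered reads were also tested with edgeR 4.0.16 and with DESeq2 1.42.0, and single genes by exact permutation tests with scipy 1.17.1. Alternatives were other pseudocounts, filters and scalings, a replicate block and leaving out libraries. The tests without RAG1-/- day 13 replicates 1 and 3 and the sums without Eno3 or Krt10 were chosen after seeing the data. The labels do not say whether skin or MC38 replicates came from separate animals or cultures, so those p-values measure the spread between these samples. A further table of 6 antibody-treated tumors, whose 6 columns match no label, was not used.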

Additional observations from a re-analysis of the deposited data

Results flagged for a closer look

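A screen covered 70 groups of 6 tumors (33 genes and 2 summaries). In it, 3 muscle gene values stood farther from the rest than Dixon's 95% critical value allows. Chance alone, at about 1 independent group in 20, gives 3.5, so the number found is at that level. The screen looks for 1 far value and can miss 2 tumors that are high together. RAG1-/- day 13 replicates 1 and 3 were the 2 highest tumors for 31 of the 33 genes, and genes that rise together are not independent. Myh4 in RAG1-/- day 13 replicate 1 stood at 1230.2 normalized counts, where the next of the 6 tumors labelled RAG1-/- was replicate 3 at 428. Mybpc1 in RAG1-/- day 13 replicate 3 stood at 221, where the next was replicate 1 at 73.8. Tcap, a cap protein of titin, stood at 45.8 in wild-type day 46 replicate 3, where the next of the 6 wild-type tumors was at 18.1.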

How the results depend on the processing

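Every comparison of all genes was refitted under each alternative. The counts between wild-type and RAG1-/- tumors and between the wild-type days stayed at 0 under every alternative run. With a replicate left out, MC38 cells against skin gave 26 to 29 lower muscle genes, and tumors against skin 2 to 4 higher (4 without RAG1-/- day 13 replicate 2). Against MC38 cells the 10 higher genes became 6 with edgeR, 22 with DESeq2, 6 without RAG1-/- day 13 replicates 1 and 3 together, and 1 to 20 with a replicate left out. Between RAG1-/- day 23 and day 13 the 0 lower genes became 21 with DESeq2 and 0 to 13 with a replicate left out. The median fast share of tumors, 65.7%, became 5.15% when further slow fiber genes were added, most of whose reads are Atp2a2 and Tpm3. The ratio of the highest to the lowest tumor sum, 21.3, became 23.6 as a share of reads, 15.9 without Acta1 and 70.1 without Eno3. For the exact tests of wild-type minus RAG1-/- tumors, log2 differences with a replicate left out ranged from -1.30 to 0.45 for Acta1, -2.38 to -0.47 for Ckm, -0.46 to 0.98 for Mylpf, -0.49 to 1.51 for Tnnt3, -2.08 to -0.03 for Myh4, -1.61 to -0.29 for Myh7, -0.11 to 0.44 for Tnnt1 and -0.53 to 1.08 for Des. Leaving out the 2 highest tumors by itself raises each of these differences. Without them the differences were 1.82 for Acta1, 0.86 for Ckm, 1.16 for Myh4, 0.74 for Myh7, 2.06 for Mylpf, 2.97 for Tnnt3, 2.20 for Des and 0.92 for Tnnt1. The cause of the other shifts was not tested.

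Samples with the same replicate number correlated at -0.24 to 0.25 in their deviations from group means, and all 3 numbers passed 0.1 for only 1 pair of groups (RAG1-/- day 23 and wild-type day 46, at 0.105, 0.208 and 0.135), groups that are not compared directly, so the numbers were not taken as pairs. With the replicate number as a block, 0 muscle genes were higher and 30 lower in MC38 cells than skin, 2 higher and 29 lower in tumors than skin, 7 higher and 0 lower in tumors than MC38 cells (Mb, Casq1 and Des were lost), and 0 in the tumor comparisons. Depth limits the low genes most: at 3 reads a library's level was up to 6.38 normalized counts.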
